A study of Mus musculus with 5 samples.

Results

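The Tag-seq library of the atrio-ventricular canal (AVC) of *Twist1* null mouse embryos was compared with the libraries of wild-type atria and wild-type ventricles, which are 3 of the 5 libraries of the series. The question is which differences between canal and chambers are present in a canal that lacks *Twist1*. The comparison covers the 12931 genes with a listed tag in any of these 3 libraries, out of 13486 genes found in the whole series. The wild-type AVC took no part in choosing or testing these genes, but it bore on which list members are named below.

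Tissue came from embryonic day 10.5 (E10.5) hearts, which were punctured and rinsed to remove blood. The null library was made from the AVCs of 8 *Twist1* knockout embryos on an ICR background. The atria and ventricles came from 20 wild-type C57BL/6 embryos each. The wild-type AVC, shown for reference, came from 25 embryos of the same strain. With 1 library for each condition there is no replicate check, and every test below compares libraries rather than conditions. Region, genotype, strain and library change together between the null AVC and the chambers and cannot be told apart. In a dissected tissue, fewer cells of a type and less RNA per cell also cannot be told apart.

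The AVC is the narrow segment between the atria and the ventricles. Its myocardium conducts slowly and secretes BMP and TGF-beta ligands, which act on the endocardium inside it. Endocardial cells then lose their junctions, turn into mesenchyme and invade a hyaluronan-rich matrix, the endocardial cushion, from which valves and septa form. TWIST1 is a bHLH transcription factor of that mesenchyme. The chambers, by contrast, form a working myocardium that grows fast and makes natriuretic peptides.

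Tag-seq cuts cDNA at CATG, the NlaIII site, and counts the 17 bases that follow. The tags of 7 genes are shown because they carry the levels discussed below: *Twist1* itself, 4 canal genes and 2 chamber genes. Each is the most abundant tag of its gene in the null AVC, or in the chambers for *Nppb* and *Hey1*. Capitals mark the CATG site, and sequences run 5′ to 3′ on the transcript. The tags of *Tbx2* and *Has2* lie at an inner NlaIII site, the others at the 3′-most one.
*Twist1*: CATGgtaaaatgcaaatagat
*Tbx2*: CATGtccgcttggtcttccca
*Has2*: CATGaaagaataaaatgtttc
*Sox9*: CATGcctctgcaagtgtgtgt
*Bmp2*: CATGgaaggttgctgagcaaa
*Nppb*: CATGgatctcctgaaggtgct
*Hey1*: CATGaaaatgtggttcttgca

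On GRCm38, the *Twist1* tag lies in the 3′ UTR in exon 2 of 2, at chr12:33959711-33959731 on the plus strand. It was read 59 times in the null AVC, against 296 in atria, 236 in ventricles and 5401 in the wild-type AVC. The *Tbx2* tag lies in the 3′ UTR in exon 7 of 7, at chr11:85841474-85841494 on the plus strand, and was read 184 times in the null AVC and listed in neither chamber. The *Has2* tag lies in the 3′ UTR in exon 4 of 4, at chr15:56666902-56666922 on the minus strand, with 742 reads in the null AVC against 8 in atria and 27 in ventricles. The *Sox9* tag, in the 3′ UTR in exon 3 of 3 at chr11:112787275-112787295 on the plus strand, was read 661 times in the null AVC, 19 times in the atria and 18 times in the ventricles. The *Bmp2* tag, in the 3′ UTR in exon 3 of 3 at chr2:133562166-133562186 on the plus strand, was read 491 times in the null AVC, 21 times in the atria and was not listed in the ventricles. The *Nppb* tag spans the start codon in exon 1 of 3, at chr4:147985975-147985995 on the plus strand, and had 399 reads in the null AVC, the deepest of the 3 libraries, against 4064 for atria and 15856 for ventricles. The *Hey1* tag, in the 3′ UTR in exon 5 of 5 at chr3:8663538-8663558 on the minus strand, was read 42 times in the null AVC, 732 times in the atria and 351 times in the ventricles.

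Levels are given as TPM, the summed tags of a gene scaled to the total of high-quality tags of its library. *Twist1* stood at 4.55 TPM in the null AVC (95% counting interval 3.46 to 5.86), against 63.4 in atria, 55.9 in the ventricles and 918 in the wild-type AVC. The null canal was thus 13.2-fold below the chambers (exact p = 5.28e-06), while the wild-type canal was 15.3-fold above them. Both wild-type chambers exceed the null AVC, which goes with the label. Which part of the gene the allele lacks is not given in the sources used here, so this tag in the 3′ UTR may lie outside it.

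The libraries hold 12977237 tags in the null AVC, 4666514 in atria and 4223810 in ventricles. Tag types with fewer than 6 reads are not listed, which hides a single tag type below 0.462 TPM in the null AVC, 1.29 in atria and 1.42 in ventricles. Haemoglobin genes took 2.73% of tags in the null AVC, against 21.5% for atria and 4.67% for ventricles. Of the tags given to a gene, 67.5% came from the 3′-most NlaIII site in the null AVC, against 80.3% in the atria and 74.8% in the ventricles. Within 2536 genes, tags of other sites gave a log2 ratio of the null AVC to the chambers that was higher by a median of 1.44 than the 3′-most tags of the same gene. The part of these differences in the results below was not tested beyond the settings given with them.

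A gene was called higher or lower when the two-sided exact test of edgeR, at a dispersion of 0.12, gave an unadjusted p under 0.05 against the sum of both chamber libraries. By this rule 5126 genes (39.6%) were higher in the null AVC and 848 (6.56%) were lower. The median log2 ratio over the 10382 genes with tags on both sides was 0.80, and TMM normalization moved each log2 ratio by -0.69, after which 3437 genes (26.6%) were higher and 1577 (12.2%) lower. A stricter count is therefore given first throughout. It holds genes called the same way in 6 tests, against the sum, the atria alone and the ventricles alone, each with library totals and with TMM. It contains 2165 genes (16.7%) that were higher and 353 (2.73%) that were lower, and list counts are to be read against these shares. Called against each chamber separately, at library totals alone, were 3878 genes (30.0%) as higher and 353 (2.73%) as lower. Because TMM lowers the ratios, its tests removed higher calls but none of these 353 lower ones. For lower genes the stricter count is thus that of library totals, and genes lower only with TMM are not in it.

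**Figure D1:**
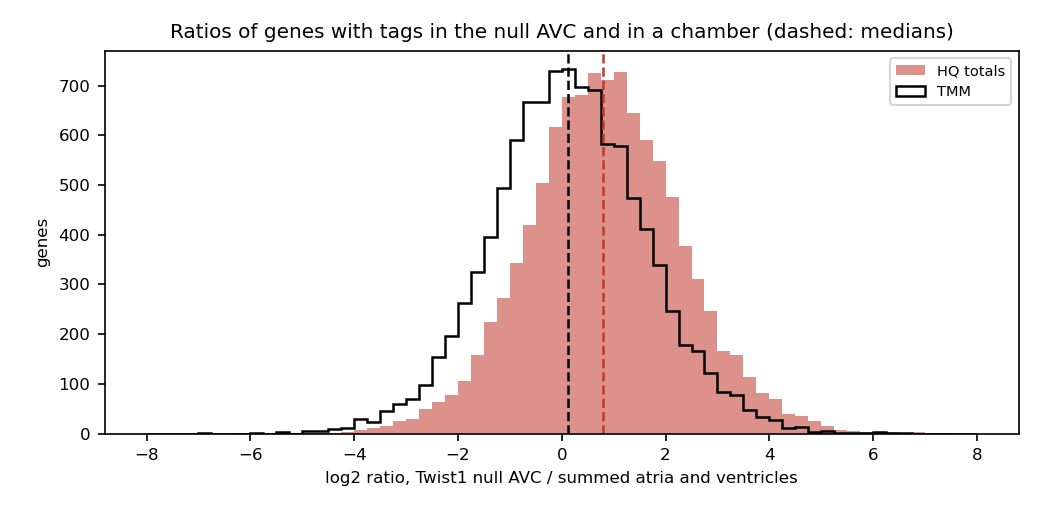
Histogram of the log2 ratio of the *Twist1* null AVC to the summed atria and ventricles for 10382 genes with tags on both sides (x axis, log2 ratio; y axis, number of genes), at library totals (red) and after TMM (black line). Dashed lines are medians: the distribution at library totals centres at 0.80 and after TMM at 0.11.

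Among the calls of higher genes, 1948 rest on genes listed in neither chamber. Their ratio is given as a lower bound, with 5 tags for each tag type missing from each chamber library, and 670 of them do not exceed that bound and have no ratio. The bound covers counting and the listing limit only. *Calr*, an endoplasmic reticulum chaperone of most cells, was at 302 TPM in the null AVC and *Srrm2*, a splicing protein, at 91.4, and neither was listed in a chamber. Genes of wide expression can thus be missing from both chamber libraries, and a listing at 0 does not show that a gene is silent there.

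**Figure D2:**
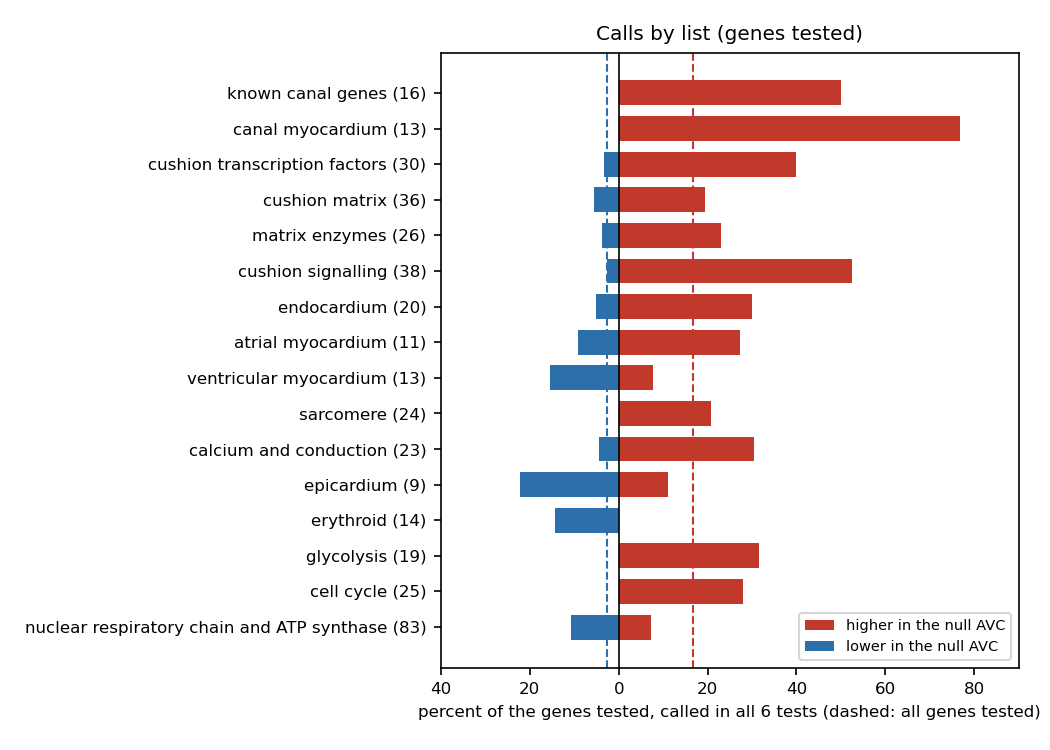
Share of each gene list called in all 6 tests (x axis, percent of the genes tested; right, higher in the null AVC; left, lower), with the number tested in parentheses; dashed lines give the shares over all 12931 genes, 16.7% higher and 2.73% lower. Canal myocardium genes reach the longest bar to the right, cushion matrix genes stay close to the dashed line, and ventricular, epicardial, erythroid and respiratory chain genes have bars to the left.

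Known canal genes were still above the chambers without *Twist1* for a part of the list. Of 16 genes with an established place in the canal or its cushions, 8 were higher in all 6 tests and none was lower. This is a larger share than the 16.7% of all genes. Against the summed chambers 12 (75.0%) were higher, against 39.6% of all genes, and with TMM 8 were, against 26.6%. The study used these genes to check its libraries, so their direction is not independent evidence. The wild-type AVC was higher for 15 of the 16. Of all genes in that comparison, which shares its chamber libraries with the null, 41.1% were higher and 7.68% lower. Between the canals, 6 of the 16 were lower in the null than in the wild-type AVC and none was higher. Without tags that begin with T 4 were lower. Of all genes tested between the canals, 12.5% were lower and 11.6% higher. Here and below, percentages of all genes in comparisons with the wild-type AVC are of 13217 genes. These include genes listed in the wild-type AVC and in none of the 3 libraries, which list counts leave out. Of the 12931 genes alone, 1362 were lower and 1539 higher in the null than in the wild-type AVC. In the wild-type AVC, 5141 of them were higher and 1015 lower than in the chambers. List medians take a bound at its value and leave out genes without a ratio or bound. The median log2 ratio of this list was 2.09, against 0.81 over the 11983 genes with a ratio or bound.

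*Has2*, which makes the hyaluronan of the cushion, was at 171 TPM in the null AVC against 1.71 in atria and 9.23 in ventricles, 32.4-fold higher (exact p = 6.16e-09). *Sox9*, a transcription factor of cushion mesenchyme, was at 114 TPM against 4.07 and 4.26, 27.3-fold higher. *Bmp2*, the myocardial signal that starts the cushion transition, was at 51.2 TPM against 4.5 in the atria and no listed tag in the ventricles, 21.7-fold higher. These 3 genes stand far above both chambers, yet not all at the level of the wild-type canal.

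*Sox9* was at 514 TPM in the wild-type AVC, 4.53-fold above the null (exact p = 0.00366), and *Bmp2* was at 220, 4.31-fold above it (exact p = 0.005). *Has2* was at 215 TPM there, a difference of 1.25-fold that did not pass (exact p = 0.652), although tags of the 3′-most site alone were lower in the null. *Gata4*, a cardiac zinc finger factor, was at 118 TPM in the null AVC against 9.43 and 5.45. *Id2*, an inhibitor of bHLH factors, was at 801 TPM against 63.0 and 102, or 9.82-fold higher.

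*Tbx2*, which keeps chamber genes off in the canal, was at 21.1 TPM in the null AVC and listed in neither chamber, at least 3.75-fold higher. *Smad6*, an inhibitor of BMP signalling, was at 18.0 TPM and at least 8.02-fold higher, from tags that all begin with T. *Jag1*, a Notch ligand, was at 8.71 TPM and at least 7.74-fold higher. *Jag1* has no listed tag at the 3′-most site in these 3 libraries and could not be tested there.

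*Sox4*, *Tbx20*, *Mmp2* and *Snai2* passed against the summed chambers but not with TMM. Their ratios were 3.16 for *Sox4*, 2.86 for the T-box factor *Tbx20*, 3.78 for the gelatinase *Mmp2* and 4.80 for *Snai2*. *Snai2*, a repressor of cell junctions, rests on 3.24 TPM in the null AVC, none listed in atria and 1.42 in ventricles. All its listed tags in these libraries begin with T.

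For 4 genes of the list no difference from the chambers passed. *Snai1*, the zinc finger repressor that drives loss of junctions, was at 4.78 TPM in the null AVC, 2.14 in atria and 1.42 in ventricles, while the wild-type AVC held 43.5. The null was 9.10-fold below the wild-type canal (exact p = 8.02e-05). *Postn*, a matricellular protein of maturing cushions, was at 29.0 TPM in the null AVC, 52.5 in atria and 32.9 in ventricles, against 145 in the wild-type AVC, which is 4.99-fold above the null (exact p = 0.00225). For *Snai1* and *Postn* the calls against the wild-type AVC held with TMM, without tags that begin with T and at the 3′-most site. *Id1* stood at 30.6 TPM against 12.4 and 14.4, and *Vim*, an intermediate filament protein of many mesenchymal cells, at 717 against 561 and 790.

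**Figure D3:**
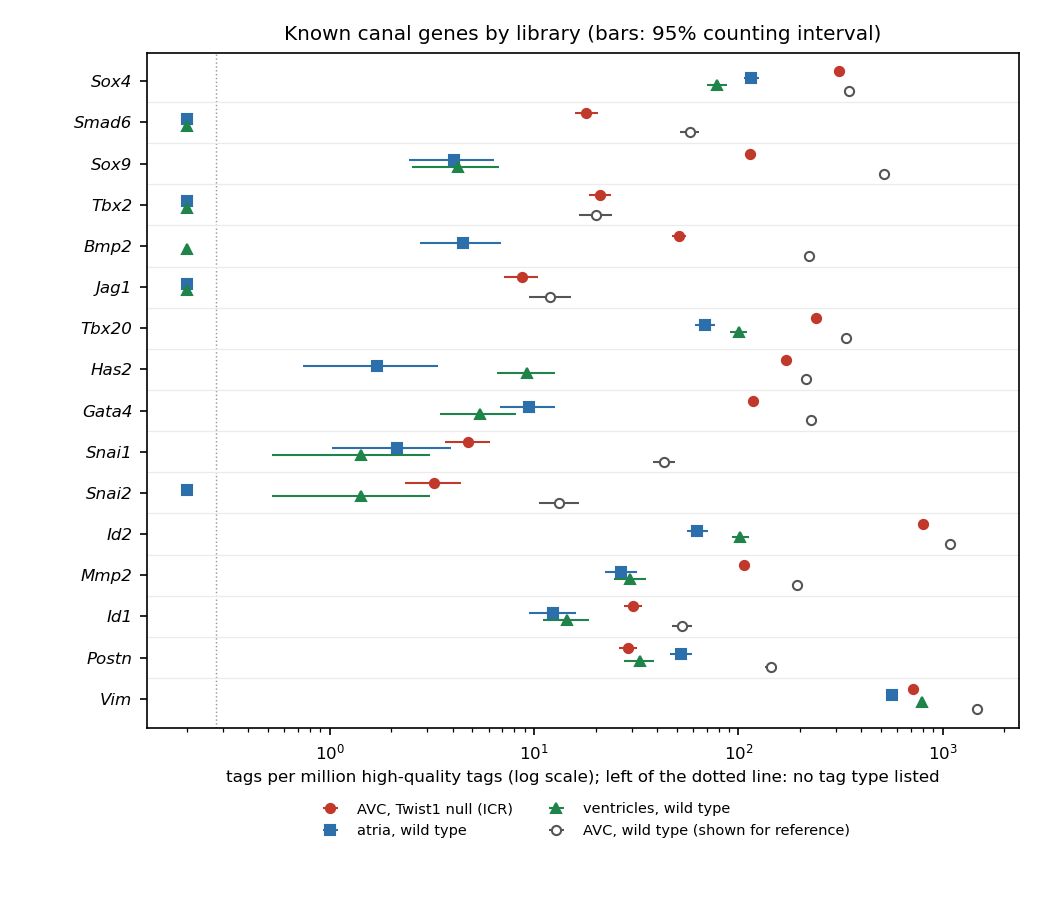
Level of the 16 known canal genes (rows) in TPM on a log axis, for the *Twist1* null AVC (filled red circles), atria (blue squares), ventricles (green triangles) and, for reference, the wild-type AVC (open circles); bars are 95% counting intervals and symbols left of the dotted line mark genes with no listed tag. *Has2*, *Sox9*, *Gata4* and *Id2* show the null AVC well to the right of both chambers, whereas *Snai1*, *Id1*, *Postn* and *Vim* show it among or close to them.

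Genes of the canal myocardium had the highest median ratio of the lists. Of 13 tested, 10 (76.9%) were higher in all 6 tests and none was lower. The median log2 ratio was 3.65 over the 12 with a ratio or bound. The study lists *Bmp2* and *Rspo3* as enriched, and *Gal* and *Adamts19* as specific, in the AVC against these same chamber libraries. The share of this list is thus not independent evidence. *Cacna2d2*, a calcium channel subunit, was at 142 TPM in the null AVC against 1.5 in atria and 1.89 in ventricles, 84.4-fold higher (exact p = 1.22e-11). *Rspo3*, a Wnt agonist, was at 70.8 TPM against 1.71 and no listed tag, 78.7-fold higher. *Tbx3*, a repressor related to *Tbx2*, was at 121 TPM against 7.29 and no listed tag, 31.6-fold higher.

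*Tgfb2*, the ligand that drives invasion in the cushion, was at 266 TPM in the null AVC against 23.8 and 24.4, 11.0-fold higher. *Bmp4* was at 27.3 TPM against no listed tag in atria and 2.37 in ventricles. In the wild-type AVC it had 9.05 TPM, and the null was 3.01-fold above it (exact p = 0.0374), a call lost without tags that begin with T. Over the list, *Bmp4* was higher in the null than in the wild-type AVC and 3 genes, *Bmp2*, *Cacna2d2* and *Cacna1g*, were lower, while 11.6% of the 13217 genes tested between the canals were higher and 12.5% lower. *Gal*, a neuropeptide, was at 32.3 TPM and at least 14.4-fold higher, and *Adamts19*, a metalloprotease, was at 17.0 TPM and at least 5.02-fold higher, with no listed tag at the 3′-most site.

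*Cacna1g*, a T-type calcium channel, passed all 6 tests on 1.77 TPM, which does not exceed the bound set by the tag types missing from the chambers, so it has no ratio. *Gjc1*, the connexin of slow conduction, was at 71.0 TPM against 17.4 and 16.3, from tags that all begin with T. It was higher against each chamber. With TMM it was not called against their sum unless tags of the 3′-most site alone were counted. *Kcne1* was at 23.3 TPM, against 3.21 in atria and 18.2 in ventricles. *Hcn4*, the pacemaker channel, was at 9.79 TPM against 12.9 and 21.5 with no call, but was lower with TMM. *Kcne1* and *Hcn4* are thus the 2 members without a call against the summed chambers.

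Transcription factors of cushion mesenchyme were above the chambers for a part of the list. Of 30 tested, 12 (40.0%) were higher in all 6 tests, 1 was lower and 17 were not called, with a median log2 ratio of 1.81. Against the summed chambers 22 were higher, and 13 with TMM. The wild-type AVC was higher for 24 of them. Between the canals, 8 of the 30 were lower in the null than in the wild-type AVC and none was higher. Over all genes 12.5% were lower and 11.6% higher in that comparison. *Msx2*, a homeobox target of BMP signals, was at 60.2 TPM in the null AVC and not listed in a chamber, at least 13.4-fold higher, but was not called from tags that begin with other bases than T. *Msx1* was at 61.0 TPM against 4.5 in atria and 1.42 in ventricles, 20.1-fold higher. *Zeb1*, a repressor of E-cadherin, was at 143 TPM against 12.0 and 7.81, 14.3-fold higher, a call that was lost at the 3′-most site.

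*Twist2*, the closest relative of *Twist1*, was at 9.79 TPM in the null AVC against 1.29 in atria and 1.66 in ventricles, 6.69-fold higher in all 6 tests. Its level in the wild-type AVC was 14.8 TPM, a 1.51-fold difference that did not pass (exact p = 0.44). *Lef1*, an effector of Wnt signals, was at 13.6 TPM and at least 6.06-fold higher. *Gata5* was at 38.9 TPM against 5.36 and 3.79.

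*Ets1*, a factor of endothelial and mesenchymal cells, was the 1 member below the chambers in all 6 tests, at 12.9 TPM against 39.9 and 49.7, or 3.46-fold lower (exact p = 0.0174). *Prrx2*, a homeobox gene of mesenchyme, was at 30.9 TPM against 17.8 and 24.4 with no call, while the wild-type AVC held 87.6. The null was 2.83-fold below the wild-type canal (exact p = 0.0425), which did not hold with TMM. *Sox13* and *Klf7* were called higher against the summed chambers, at 3.93 and 9.94 TPM, and both were lower than in the wild-type AVC, by 6.87-fold and 4.95-fold.

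Cushion matrix genes were called in both directions. Of 36 tested, 7 (19.4%) were higher in all 6 tests, close to the 16.7% of all genes, and 2 were lower. Against the summed chambers 13 were higher and 2 lower, and with TMM 9 were higher and 8 lower. The wild-type AVC was higher than the same chambers for 27 of the 36, and 14 of these 27 were not higher in the null AVC. Among all genes, 1461 of the 5141 that were higher in the wild-type AVC were not higher in the null. Of the 14 matrix genes, 11 were lower in the null than in the wild-type AVC, as were 550 of the 1461. Genes chosen as higher in the wild type and not in the null lean towards such a difference by that choice. Over the whole list 18 genes were lower in the null than in the wild-type AVC and 1 was higher, while 12.5% of all genes were lower and 11.6% higher in that comparison.

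Collagen genes come first. *Col3a1* was at 207 TPM in the null AVC, 94.9 in atria and 109 in ventricles (exact p = 0.158), against 1439 in the wild-type AVC, 6.97-fold above the null (exact p = 0.000262). *Col1a1* was at 28.7 TPM against 28.5 and 19.7, with 162 in the wild-type AVC. *Col9a3* was at 11.9 TPM against 8.79 and 2.60, with 131 in the wild-type AVC, 11.0-fold above the null. For these 3 no difference between the null and the summed chambers passed, and each was lower in the null than in the wild-type AVC.

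Glycoproteins of the cushion followed. *Fbn2*, a fibrillin of embryonic microfibrils, was at 47.4 TPM in the null AVC against 30.9 and 31.0, with 438 in the wild-type AVC. *Tnc*, tenascin C, was at 4.85 TPM against 3.64 in the atria and no listed tag in the ventricles, with 47.7 in the wild-type AVC. *Fbln2* was at 16.6 TPM against 38.4 and 40.7, with 131 in the wild-type AVC, and *Fn1*, fibronectin, at 560 against 312 and 160, with 1567 there.

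*Dcn* and *Mgp* were below the chambers in all 6 tests. *Dcn*, the proteoglycan decorin, was at 4.70 TPM in the null AVC against 33.6 and 33.9, 7.18-fold lower (exact p = 0.000335), while the wild-type AVC held 60.4. *Mgp*, matrix Gla protein, an inhibitor of calcification, was not listed in the null AVC and was at 2.57 TPM in atria and 1.66 in ventricles, at least 5.55-fold lower. The wild-type AVC held 12.3 TPM of *Mgp* and was higher than the chambers.

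The 7 matrix genes above the chambers in all 6 tests include *Has2* and 6 more. The hyaluronan-binding proteoglycan *Vcan* was at 263 TPM against 21 and 27.0, 11.0-fold higher. *Col2a1*, the cartilage collagen, was at 88.6 TPM against no listed tag in atria and 6.63 in ventricles, 28.1-fold higher. *Nid2*, a basement membrane linker, was at 185 TPM against 37.1 and 28.6. *Papss2*, which supplies sulfate for proteoglycans, was at 12.0 TPM and at least 3.56-fold above the chambers, but at 219 TPM in the wild-type AVC, 18.2-fold above the null (exact p = 3.70e-07). *Bgn*, biglycan, was at 4.55 TPM and at least 2.02-fold above the chambers, with 49.4 in the wild-type AVC. *Eln*, elastin, was the last of them, at 2.23 TPM and listed in neither chamber, from tags that all begin with T.

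**Figure D4:**
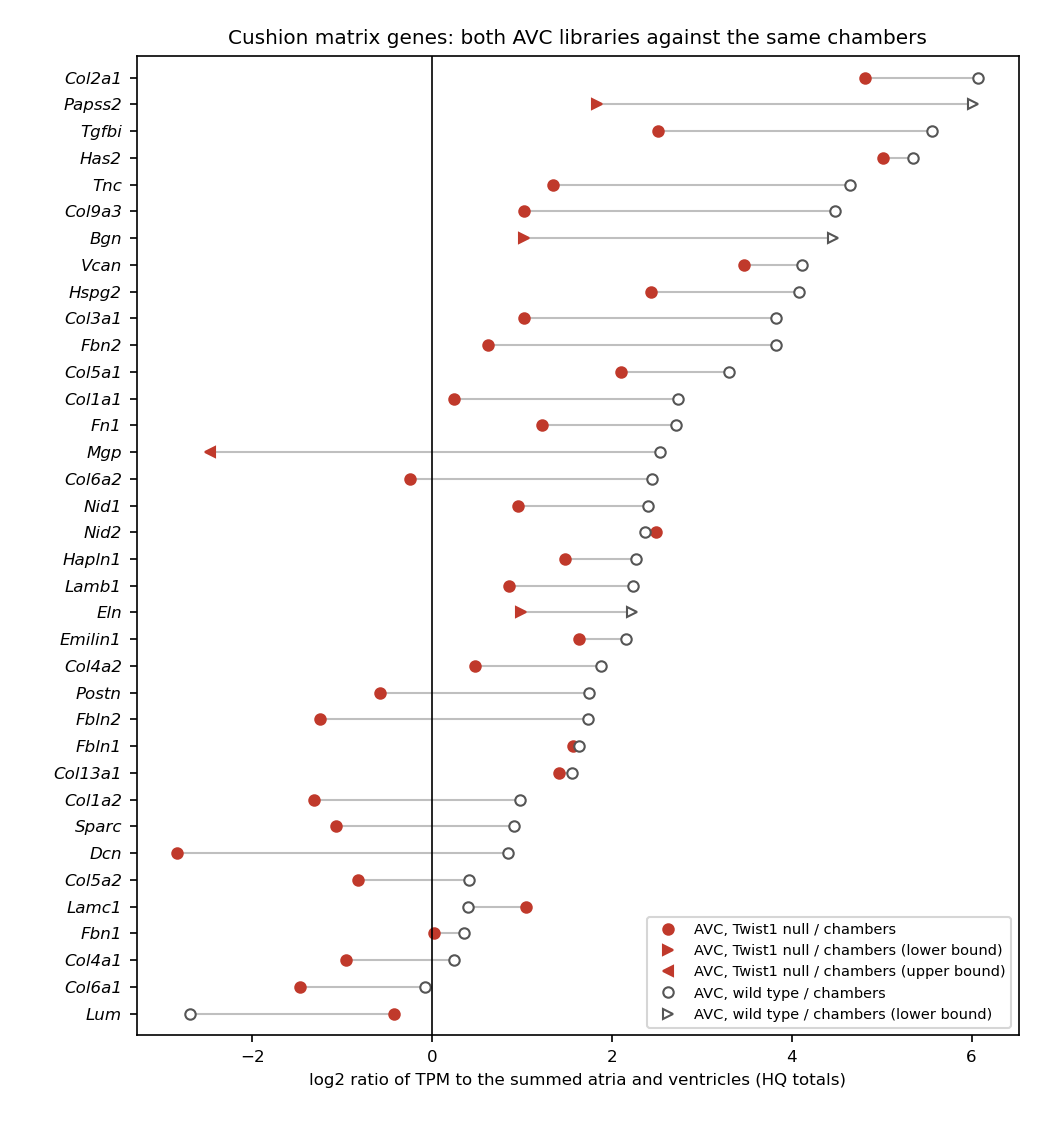
Log2 ratio to the summed atria and ventricles (x axis, library totals) of 36 cushion matrix genes (rows) for the *Twist1* null AVC (filled red) and the wild-type AVC (open), joined by a grey line; triangles are bounds where one side has no listed tag, and both AVC libraries share the chamber libraries. The null lies left of the wild type for 33 of the 36 genes, called or not, and positions were not counted over all genes. Gaps are long for *Papss2*, *Tnc*, *Col9a3*, *Mgp* and *Dcn* and short for *Has2*, *Vcan* and *Fbln1*. Between the canals 18 of the 36 were called lower in the null and 1 higher, against 12.5% and 11.6% of all genes.

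Enzymes that modify or cut matrix were divided. Of 26 tested, 6 (23.1%) were higher in all 6 tests and 1 was lower. *P4ha2*, a collagen prolyl hydroxylase, was at 185 TPM in the null AVC against 2.57 in atria and 2.84 in ventricles, 68.7-fold higher (exact p = 2.56e-11), and 3.08-fold above the 60.2 TPM of the wild-type AVC. *Mmp14*, a membrane protease, was at 21.7 TPM and at least 9.63-fold above the chambers, yet 4.13-fold below the wild-type AVC. *Htra1*, a secreted protease, was at 10.6 TPM, at least 4.69-fold above the chambers and 6.66-fold below the wild-type AVC. *Serpinh1*, the collagen chaperone, was lower than both chambers, at 813 TPM against 2318 and 3258. *Plod2*, a collagen lysyl hydroxylase, was at 7.63 TPM, 6.00 in the atria and not listed in the ventricles, with 33.6 TPM in the wild-type AVC.

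Ligands, receptors and targets of cushion signalling stayed above the chambers for the larger part. Of 38 tested, 20 (52.6%) were higher in all 6 tests and 1 was lower, with a median log2 ratio of 2.91. Among secreted signals and binding proteins, *Igfbp5* was at 1296 TPM in the null AVC against 49.7 and 17.5, 37.7-fold higher. *Vegfa*, which acts on endocardium, was at 77.4 TPM against no listed tag in atria and 3.08 in ventricles, 52.9-fold higher. *Bmper*, a BMP-binding protein, was at 118 TPM against 10.9 and 1.66, and *Bmp7* at 112 against 6.21 and 16.8, the latter not called without tags that begin with T.

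The ligands *Kitl* and *Nrg1* were above the chambers and below the wild-type canal. *Kitl*, the ligand of the KIT receptor, was at 27.4 TPM against 1.5 and 1.66, 17.4-fold higher, and the wild-type AVC held 122, 4.45-fold above the null (exact p = 0.0043). *Nrg1*, a ligand that acts through ERBB3, was at 2.54 TPM and at least 2.26-fold above the chambers, with 13.7 in the wild-type AVC. *Wnt2* was at 0.616 TPM against 3.00 in the atria and none listed in the ventricles, with no call against the summed chambers, and was 9.35-fold below the wild-type AVC.

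Receptors were called as well. *Erbb3*, expressed in cushion mesenchyme, was at 22.3 TPM in the null AVC and not listed in a chamber, at least 9.93-fold higher, with 20.6 TPM in the wild-type AVC. *Pdgfra* was at 35.8 TPM against 2.57 and 5.21, 9.35-fold higher, with 35.2 in the wild-type AVC. *Fzd2*, a Wnt receptor, was at 124 TPM against 15.2 and 11.8. *Pdgfrb* was at 2.62 TPM and at least 2.33-fold higher, but 5.84-fold below the wild-type AVC. *Hey1*, a Notch target that is expressed in atrial myocardium, was the member below the chambers, at 9.86 TPM against 157 in atria and 83.1 in ventricles, 12.4-fold lower (exact p = 6.77e-06). The wild-type AVC, at 5.43 TPM, was lower than the chambers too.

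Endocardial markers were present in the null AVC. Of 20 tested, 6 (30.0%) were higher in all 6 tests and 1 was lower. *Pecam1*, an adhesion molecule of endothelium, was at 34.1 TPM against 2.57 and 3.31, and *Cdh5*, VE-cadherin, at 81.8 against 8.57 and 12.8. *Nfatc1*, the factor of cushion endocardium, was at 119 TPM against 18.6 and 16.3, a call lost at the 3′-most site and without tags that begin with T. *Kdr*, the VEGF receptor, was at 70.3 TPM against 64.5 and 75.1. *Npr3*, a natriuretic peptide receptor of endocardium, was lower, at 41.5 TPM against 136 and 143.

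The chamber programme split by gene. *Nppb*, the B-type natriuretic peptide, had the smallest p of the lower genes, at 30.7 TPM in the null AVC against 871 in atria and 3754 in ventricles, 72.9-fold lower (exact p = 5.48e-12). The wild-type AVC, at 255 TPM, was also below the chambers, and the null was 8.29-fold below it (exact p = 8.94e-05). Of 13 ventricular genes, 2 were lower in all 6 tests, *Nppb* and the homeobox gene *Irx5* (3.54 TPM against 12.0 and 24.9), and 1 was higher, *Irx4* (18.3 TPM against none listed and 2.84). Counted against the summed chambers, 5 were lower and 5 higher, and with TMM 6 were lower and 2 higher.

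The other 3 lower calls rest on the ventricles. *Myl2*, the ventricular regulatory myosin light chain, was at 419 TPM in the null AVC, above the 55.5 of the atria and below the 6196 of the ventricles. *Cited1* was at 14.0 TPM against 18.6 in atria and 228 in ventricles. *Bmp10*, which supports trabecular growth, was at 12.2 TPM against 29.8 in atria, and 5.40-fold below the summed chambers. In the wild-type AVC *Myl2* was at 1067, *Cited1* at 19.6 and *Bmp10* at 21.1 TPM.

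Of 11 atrial genes, 3 were higher in all 6 tests and 1 was lower. *Nppa*, the A-type natriuretic peptide, was at 184 TPM in the null AVC against 18.2 in atria and 29.8 in ventricles, 7.76-fold higher (exact p = 0.000142), the opposite of *Nppb*. The list's lower member was *Hey1*. *Tbx5* was at 61.3 TPM against 9.86 and 10.4, but at the 3′-most site alone it was lower. *Myl7*, the atrial light chain, was at 3405 TPM against 1088 in atria and 775 in ventricles, a call lost with TMM and at the 3′-most site. *Stard10* was at 142 TPM against 272 in atria and 14.7 in ventricles, with 12.3 in the wild-type AVC. The atria library did not exceed the ventricles for *Nppa* or *Gja5*, so these markers do not separate the chamber libraries here.

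**Figure D5:**
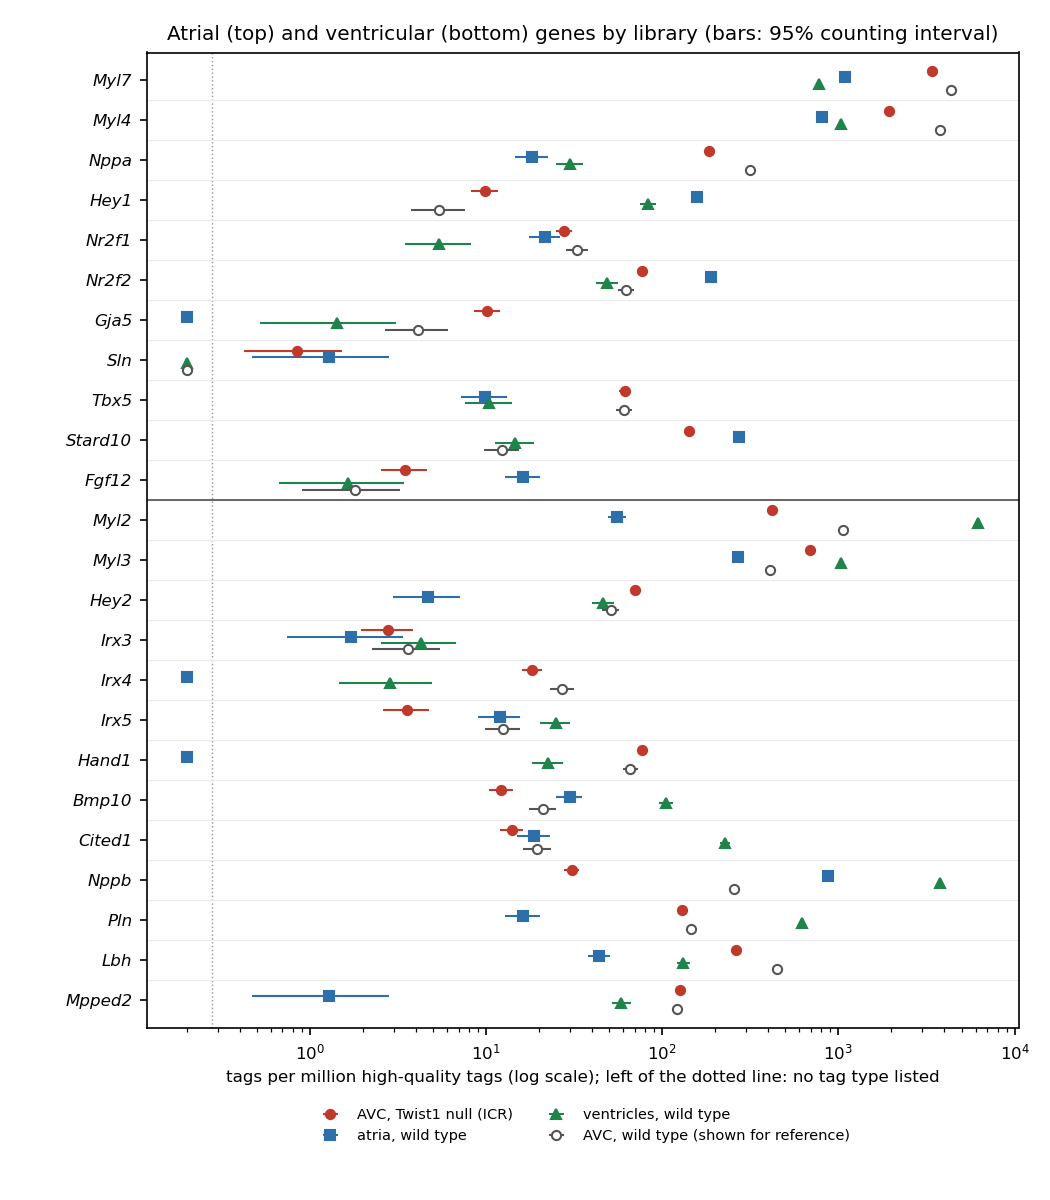
Level of 11 atrial genes (above the line) and 13 ventricular genes (below it) in TPM on a log axis, with the symbols of the canal gene plot (red circles, null AVC; blue squares, atria; green triangles, ventricles; open circles, wild-type AVC) and 95% counting intervals. *Nppb*, *Cited1*, *Bmp10* and *Irx5* have the null AVC left of both chambers, and *Myl2* and *Pln* have it between them.

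Sarcomere genes were abundant in the null AVC and mostly not called. Of 24 tested, 5 (20.8%) were higher in all 6 tests and none was lower. *Actc1*, cardiac actin, was at 8933 TPM against 5782 in atria and 13856 in ventricles. *Myh7*, the slow myosin heavy chain, was at 1454 TPM against 5.79 and 191, 15.5-fold higher, and *Tnnt2* at 2493 against 198 and 453. *Ttn*, titin, was at 439 TPM against 25.3 and 31.7. *Myh6*, the fast myosin heavy chain, was at 290 TPM against 196 and 142 with no call, while the wild-type AVC held 2696, 9.31-fold above the null (exact p = 3.73e-05). *Tpm1* was at 780 TPM against 613 and 1129, with 2650 in the wild-type AVC, 3.4-fold above the null (exact p = 0.0169).

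Of 23 calcium handling and conduction genes, 7 (30.4%) were higher in all 6 tests and 1 was lower. *Kcnj5*, an atrial potassium channel subunit, was at 44.8 TPM and listed in neither chamber, at least 13.3-fold higher, from tags that all begin with T. *Kcnh2*, a potassium channel, was at 17.3 TPM against 1.29 and none listed, also from tags that begin with T. *Cacna1c*, the L-type calcium channel, was at 164 TPM against 18.6 and 32.9, 6.45-fold higher, and 3.88-fold above the wild-type AVC. *Smpx*, a small muscle protein, was lower, at 12.3 TPM against 45.2 and 137. *Pln*, phospholamban, was at 130 TPM, between 16.3 in atria and 623 in ventricles.

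Genes of energy use were counted by pathway, and a difference between pathways was not tested. Of 19 glycolysis genes, 6 (31.6%) were higher in all 6 tests and none was lower, against 16.7% and 2.73% of all genes. Against the summed chambers 7 (36.8%) were higher, near the 39.6% of all genes. *Hk2*, the muscle hexokinase, was at 228 TPM in the null AVC against no listed tag in atria and 5.45 in ventricles, 88.0-fold higher, with 39.3 in the wild-type AVC. *Pkm* was at 1811 TPM against 140 and 424, and *Pfkp* at 452 against 34.1 and 83.6. *Gapdh* was at 96.6 TPM against 3.21 and 3.08 from the tags given to this gene alone, its near-identical copies make this value uncertain, and it has no listed tag at the 3′-most site. Against the wild-type canal 8 of the 19 genes were higher and 2 lower, and without tags that begin with T 3 were higher and 3 lower. Over the 12931 genes tested against the chambers, 1539 were higher and 1362 lower with all tags, and 986 higher and 1760 lower without those tags.

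Of 83 nuclear genes of the respiratory chain and ATP synthase, 9 (10.8%) were lower in all 6 tests and 6 (7.23%) were higher. With TMM 23 were lower and 7 higher, against 12.2% lower and 26.6% higher of all genes. The wild-type AVC was lower than the same chambers for 16 and higher for 9, against 7.68% and 41.1% of all genes. Between the canals 16 were higher in the null and 7 lower, against 11.6% and 12.5% of all genes. Without tags that begin with T 7 were higher and 7 lower. *Ndufaf2*, an assembly factor of complex I, was at 14.0 TPM against 128 and 274, 14.0-fold lower (exact p = 2.37e-06). *Ndufb10* was at 62.6 TPM against 393 and 788, and *Uqcrb*, of complex III, at 36.1 against 253 and 447, the latter with no listed tag at the 3′-most site. *Ndufv1*, the flavoprotein of complex I, went the other way, at 145 TPM against 9.64 and 20.4. The median log2 ratio of the 83 genes was -0.05, below the 0.81 of all genes with a ratio or bound.

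Cell cycle genes were called higher against the summed chambers at about the share of all genes. Of 25 tested, 7 (28%) were higher in all 6 tests and none was lower, against 16.7% and 2.73% of all genes. Against the summed chambers 10 (40.0%) were higher and 1 (4.0%) lower, against 39.6% and 6.56% of all genes. With TMM against the summed chambers 8 were higher and 5 lower, against 26.6% higher and 12.2% lower of all genes. *Cdk4* was at 230 TPM against 16.7 and 17.3, 13.5-fold higher, *Ccnd3* at 479 against 77.4 and 86.4, and *Mcm7* at 272 against 47.4 and 41.0. The inhibitors *Cdkn1a*, at 25.2 TPM against 4.5 and 4.97, and *Cdkn1b*, at 33.9 against 4.93 and 6.87, were also higher, but not without tags that begin with T. *Ccnb1*, a mitotic cyclin, was lower against the summed chambers, at 67.3 TPM against 142 and 265. The median log2 ratio of the list was -0.02, below the 0.81 of all genes with a ratio or bound.

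Markers of other tissues bear on the dissection. Of 14 erythroid genes tested, 2 were lower in all 6 tests and none was higher, and their summed level was 27658 TPM in the null AVC, 215825 in atria, 46917 in the ventricles and 2747 in the wild-type AVC. *Hbb-y*, an embryonic globin, was at 15446 TPM against 155319 in atria and 35370 in ventricles. Of 9 epicardial genes, *Tcf21* (27.3 TPM against 139 and 111) and *Lrrn4* (4.47 against 14.1 and 17.5) were lower and *Wt1* (9.71 against none listed and 1.66) was higher. All listed tags of *Lrrn4* and *Wt1* in these libraries begin with T. The summed epicardial level was 227 TPM, against 376 and 359.

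Liver and endoderm genes were nearly absent from the null AVC, with a summed level of 4.55 TPM against 52.7 in the atria and none listed in the ventricles, and *Alb* was listed in the atria alone among these 3 libraries. Of 4 neural crest genes tested, 1 was higher in all 6 tests, *Sox10*, at 2.31 TPM and at least 1.03-fold above the chambers, from tags that all begin with T. Of 6 second heart field genes, 2 were higher, *Mef2c* (38.2 TPM against 1.93 and 2.84) and *Fgf10* (5.93 TPM, listed in neither chamber). Among 6 smooth muscle genes none was higher in all 6 tests. Against the summed chambers 4 (66.7%) were higher, against 39.6% of all genes. The smooth muscle actin *Acta2* was at 716 TPM against 102 and 184, with no listed tag at the 3′-most site. Leukocyte genes reached 0.462 TPM in sum. The part of these cells in the results above was not tested.

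The 10 higher and 10 lower genes with the smallest p among those called in all 6 tests add few canal genes. The higher ones were each listed in neither chamber. *Msx2* is among them, with *Nkx2-5*, the cardiac homeobox factor that chamber myocardium also uses, at 55.9 TPM and at least 24.9-fold higher. The muscle protein *Asb2* was at 56.3 TPM. *Arxes2*, on chromosome X, was at 65.8 TPM in the null AVC and at 1.32 in the wild-type AVC. The remaining higher genes were *Calr*, *Srrm2*, *Tomm34*, *Acin1*, *Ogfr* and *Gm47283*, a gene on chromosome Y.

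Among the lower genes after *Nppb*, *Rpl22l1*, a ribosomal protein paralog, was at 26.2 TPM against 580 and 849, 27.0-fold lower. *Cstb*, a cathepsin inhibitor, was at 21.8 TPM against 479 and 630, 25.3-fold lower, and *Cdkn3*, a phosphatase of cell cycle kinases, at 2.47 against 69.6 and 58.5. *Plek2*, *Ppl*, *Gp6*, *Slc25a31* and *Kirrel2* were not listed in the null AVC and had between 3.43 and 19.3 TPM in the chambers. The last of the 10 is a row annotated to a microRNA host position and is not described, because short tags do not measure the microRNA.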

How the data were processed

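The authors deposited counts of reads per 17-base tag for each Tag-seq library, without normalization, keeping tag types with more than 5 reads; the smallest deposited count is 6. The submitters' notes name the mm9 build, but the files hold no coordinates. Members and gene lists were chosen with earlier results of these data known, so list counts are descriptions and not independent evidence.

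Virtual tags were cut with Python 3.11.15 (pandas 2.3.3, scipy 1.17.1) from 33363 RefSeq-linked GENCODE M21 transcripts (GRCm38), with 20 adenines added at the end. Tags matching 1 gene alone in sense were retained and added up per gene. In the null AVC 73.8% of tags met this, in the atria 73.6% and in the ventricles 74.5%. TPM were computed here as a gene's tags scaled to the library total of high-quality tags. Intervals are Clopper-Pearson and cover counting error only, since PCR copies are not separate molecules. Ratios use these totals. A missing gene was set to 5 reads for each tag type missing from each library to give a bound.

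edgeR 4.0.16 (R 4.3.3) was run as an exact test with both sides on all genes at the dispersion of 0.12 named in the study's methods, with unadjusted p under 0.05 as the call. The same test was run for the wild-type AVC against the chambers and for the null against the wild-type AVC. Named genes are *Twist1*, members of the lists, and the 10 genes with the smallest p in each direction among those called in 6 tests. Named list members include those called in the wild-type AVC and not in the null. In all 18 alternatives were listed at the outset and 2 were added after seeing the data, together with the single tag classes for comparisons that use the wild-type AVC. The test was also run on counts simulated at the same dispersion of 0.12. Such counts cannot show how it behaves on these libraries, whose dispersion is not known without replicates. The OFT library was not used in tests. The values of 1 gene of the respiratory chain list are not reported here.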

Additional observations from a re-analysis of the deposited data

Results flagged for a closer look

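A few list members stood on opposite sides of the 2 chambers. *Myl2* in the null AVC was 7.55 times the atria level and 0.0676 times the ventricle level, and *Pln* was 7.98 times and 0.209 times. *Afp* was 0.108 times the atria level and listed at 0 in the ventricles, and *Apoa2* was 0.139 times the atria level and at least 1.56 times the ventricle level. The difference between chambers was not itself tested. Over all genes, 22 were higher than the atria and lower than the ventricles, and 17 the reverse.

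In the wild-type outflow tract (OFT) library, which no comparison uses, *Twist1* was at 299 TPM, above 63.4 in the atria and 55.9 in the ventricles.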

How the results depend on the processing

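The 12 known canal genes higher than the chambers ranged from 8 to 14 under the 20 alternatives, and none of these alternatives moved the count beyond 1.5-fold. The 5126 higher genes became 3412 with DESeq2 size factors, 2316 at a dispersion of 0.4, 2471 with missing tag types set to 5 reads and 2776 with the same TPM minimum and TMM. The 848 lower genes became 1577 with TMM, 1590 with DESeq2 size factors, 1332 and 250 at dispersions of 0.05 and 0.4, 542 with Benjamini-Hochberg adjustment, 503 with at least 50 tags per gene, 1280 with the same TPM minimum, 2008 with that minimum and TMM, and 1452 at the 3′-most site with TMM.

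Called named genes numbered 147 and gave 2889 values under the alternatives. A further 51 pairs of gene and alternative have no value, because no tag was left in that setting or the gene was below its minimum. These pairs are not counted as lost calls. Of the 2889 values, 2719 kept direction and call, 160 kept direction and lost the call, and 10 changed sign. On the log2 scale these were *Cacna1g* (-0.34) and *Klf7* (-0.0263) with missing tag types at 5 reads, *Zeb1* (-0.17), *Nfatc1* (-0.32) and *Myl7* (-0.0905) at the 3′-most site with TMM, *Tbx5* at the 3′-most site without (-7.55) and with TMM (-7.85), *Myl2* against the atria (2.92), and *Apoa2* (7.003) and *Afp* (6.33) against the ventricles. The fitted values of *Tbx5*, *Apoa2* and *Afp* set a library with no listed tag against few tags, depend on the prior count and are not bounds. Of genes without a call, *Pln* was called against the atria (3.00) and *Stard10* against the ventricles (3.27), each opposite to the summed ratio. The causes were not tested. The largest loss of calls, 44, came at a dispersion of 0.4.

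No paired analysis was possible because each condition has 1 library and the labels carry no replicate numbers. Leaving out a replicate was not possible for the same reason, and leaving out 1 chamber gave 5400 higher genes against the atria and 4764 against the ventricles. Depth limits low genes: the chambers hide tag types below 1.29 and 1.42 TPM.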

Other observations

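Among genes called higher in all 6 tests the median GC content of a gene's tags was 47.1%, against 41.3% among genes in neither set and 41.2% among genes called lower. With an offset for GC content 5275 genes were higher and 1054 lower, and 11 of the 16 known canal genes were higher.

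Tags whose first base after CATG is T made up 34.6% of the gene tags of the null AVC, 34.9% of the atria, 24.6% of the ventricles and 15.4% of the wild-type AVC. Within 1654 genes with at least 100 tags on each side, the log2 ratio of the null AVC to the chambers was higher by a median of 0.99 for these tags than for its remaining tags. For the wild-type AVC the median difference was -0.94, over 792 genes. Comparisons of the null with the wild-type AVC therefore set libraries side by side whose tags differ by first base, and over the cushion matrix genes the count lower in the null was 18 with all tags and 19 without these tags.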
